A study of Mus musculus with 2 samples.

Results

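Tcf1 binding was described at 9 genes that encode CTCF, YY1 and the cohesin machinery, using the 1 list of Tcf1 ChIP-seq peaks from naïve mouse CD8+ T cells. A deposited peak was taken as belonging to these genes when its summit lay in the gene body or within 50 kb of either end of Ctcf, Yy1, Rad21, Smc3, Stag1, Nipbl, Wapal, Pds5a or Pds5b in the mm9 annotation, and the rule used position alone. It selected 30 of the 22286 deposited peaks. The list compares 1 WT library (genotype wild type) with 1 Tcf1-deficient library, both from GFP+ TCRbeta+ CD62Lhi CD44lo-med CD8+ cells of mouse spleen that were immunoprecipitated with an anti-Tcf1 antiserum raised against the full-length protein. The labels give the control genotype as Tcf1-/-Lef1-/- and describe hCD2-Cre and Rosa26-lsl-GFP alleles in both groups, with Tcf1 and Lef1 either wild type or floxed, whereas the study's methods describe Cd4-Cre+ Tcf7 fl/fl mice as the control, so whether Lef1 was also absent is not settled here. hCD2-Cre acts mainly in mature T cells and Cd4-Cre already in the thymus. The study used adult mice of both sexes on a C57BL/6 background without saying which gave these libraries, and a peak list holds no transcript levels with which the labelled cell type could be checked.

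CTCF is a zinc-finger protein that binds insulator sequences and stops cohesin as it extrudes chromatin loops, and YY1 is a zinc-finger protein that links enhancers with promoters. Cohesin is a ring of SMC1, the ATPase SMC3 and the kleisin RAD21, to which a STAG subunit is attached. NIPBL loads the ring and drives extrusion, WAPL (gene symbol Wapal in mm9) releases it from chromatin, and PDS5A and PDS5B bind the ring and regulate both its release and its stability. Tcf1, encoded by Tcf7, binds a Tcf/Lef sequence through its HMG box and is known for its roles in T cell development and in keeping the identity of CD8+ T cells. The comparison asks where Tcf1 was bound at the genes that encode the folding machinery.

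The sequences below show the summit regions on which the results turn, read from the plus strand of the mm9 genome, and the Pds5a, Nipbl and Rad21 genes lie on the minus strand. Capitals mark an exact match, on either strand, to 1 of 6 cores of 7 bases that were searched within 100 bp of each summit: Tcf/Lef (ATCAAAG), ETS (CGGAAGT), Runx (TGTGGTT), 2 versions of the central part of the CTCF site (AGGGGGC and AGGTGGC) and YY1 (ATGGCGG). Most are whole windows with 100 bases on each side of the summit. The windows at the Pds5b promoter and in Pds5a intron 10 stop at the next annotated exon, and only the core with 11 bases on each side is printed where the summit is in an untranslated exon. They comprise the only high-confidence peak here with the Tcf/Lef core, the own-promoter peaks with another core, the Ctcf promoter for the CTCF gene itself, and the 3 peaks at these loci with a fold enrichment of at least 14 outside the own promoters.
Pds5a exon 2 peak, chr5:66088180-66088208: tcggtcagaaaATCAAAGttcagcgggaa
Nipbl promoter peak, chr15:8394498-8394698: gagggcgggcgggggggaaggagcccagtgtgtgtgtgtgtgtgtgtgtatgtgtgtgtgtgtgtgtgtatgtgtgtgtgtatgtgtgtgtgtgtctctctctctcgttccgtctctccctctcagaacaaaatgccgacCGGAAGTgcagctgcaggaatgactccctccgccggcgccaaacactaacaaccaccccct
Yy1 promoter peak, chr12:110030975-110031175: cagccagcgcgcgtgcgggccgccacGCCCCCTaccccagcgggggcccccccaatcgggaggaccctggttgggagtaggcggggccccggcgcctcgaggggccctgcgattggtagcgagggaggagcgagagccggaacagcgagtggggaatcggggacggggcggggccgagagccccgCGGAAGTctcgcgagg
Rad21 promoter peak, chr15:51823368-51823568: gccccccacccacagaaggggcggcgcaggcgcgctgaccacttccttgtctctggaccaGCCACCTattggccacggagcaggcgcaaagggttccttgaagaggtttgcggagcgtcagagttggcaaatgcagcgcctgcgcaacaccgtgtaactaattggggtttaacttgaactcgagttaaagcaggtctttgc
Pds5b promoter peak, chr5:151476185-151476313: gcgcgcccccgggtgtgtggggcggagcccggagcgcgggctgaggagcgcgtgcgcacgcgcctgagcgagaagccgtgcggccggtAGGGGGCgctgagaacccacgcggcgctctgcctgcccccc
Ctcf promoter peak, chr8:108160186-108160386: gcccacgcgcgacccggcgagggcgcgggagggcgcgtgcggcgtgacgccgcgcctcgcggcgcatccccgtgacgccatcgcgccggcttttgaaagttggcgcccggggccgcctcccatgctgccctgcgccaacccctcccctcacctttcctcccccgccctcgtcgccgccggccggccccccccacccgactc
Yy1 upstream peak, chr12:110004095-110004295: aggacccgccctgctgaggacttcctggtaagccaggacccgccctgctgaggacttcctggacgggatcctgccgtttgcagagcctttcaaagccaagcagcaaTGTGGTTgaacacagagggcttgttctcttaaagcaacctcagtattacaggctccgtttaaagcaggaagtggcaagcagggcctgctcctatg
Pds5a intron 10 peak, chr5:66045129-66045243: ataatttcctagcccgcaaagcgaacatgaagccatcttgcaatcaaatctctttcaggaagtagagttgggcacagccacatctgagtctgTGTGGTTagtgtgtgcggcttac
N4bp2l2 promoter peak upstream of Pds5b, chr5:151468341-151468541: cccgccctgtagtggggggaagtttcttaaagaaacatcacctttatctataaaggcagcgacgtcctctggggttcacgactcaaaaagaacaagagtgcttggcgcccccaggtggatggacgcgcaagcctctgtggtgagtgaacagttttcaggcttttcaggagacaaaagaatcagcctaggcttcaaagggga

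In the list, the pileup counts the WT fragments that cover the summit, and the control level is the count expected there from the Tcf1-deficient library after scaling to the WT depth. The fold enrichment is the ratio of the pileup plus 1 to the control level plus 1. After removal of duplicates the libraries held 36938606 (WT) and 27625250 (Tcf1-deficient) fragments. The control level never fell under a floor of 5.42 fragments, so that a peak at the floor needed 25 fragments (exact Poisson 95% interval 16.2 to 36.9) to be enriched by 4-fold. At the floor the control level is the same for every peak and not a value particular to its position. The fold enrichment there follows from the WT pileup alone. All intervals given here cover counting error only, those of the pileup and of the fold enrichment that of the WT library alone, with the control level taken as exact. Overlaps of fold intervals therefore leave out the error of the control library, and with 1 library per group there was no replicate check. Peaks were called high-confidence when enriched at least 4-fold with p below 1e-05 and q below 0.05. At the architecture genes 25 of 30 peaks (83.3%, Wilson 95% interval 66.4 to 92.7) met these limits, against a background of 85.4% of all deposited peaks.

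All 9 genes had a high-confidence Tcf1 peak at their own promoter, that is, with the summit within 1 kb of an annotated start site of the gene. Across the genome 32.7% of the 22380 protein-coding genes had such a peak. This background takes in all annotated protein-coding genes and was not matched for expression or promoter GC content. The 9 genes carried 12 own-promoter peaks, because Yy1, Pds5a and Pds5b had 2 each. Fold enrichments of these 12 peaks ranged from 4.83 to 15.7, with a median of 7.02. The summits lay 29 to 996 bp from the nearest start site of the gene, with a median of 172 bp, and 8 of the 12 were upstream of it. The count of 9 genes held with narrower and with wider promoters, but at a fold minimum of 8 it was 3 genes (Nipbl, Rad21 and Ctcf), against a background of 11.7% of protein-coding genes. Transcript levels of these genes were not analysed here.

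**Figure D1:**
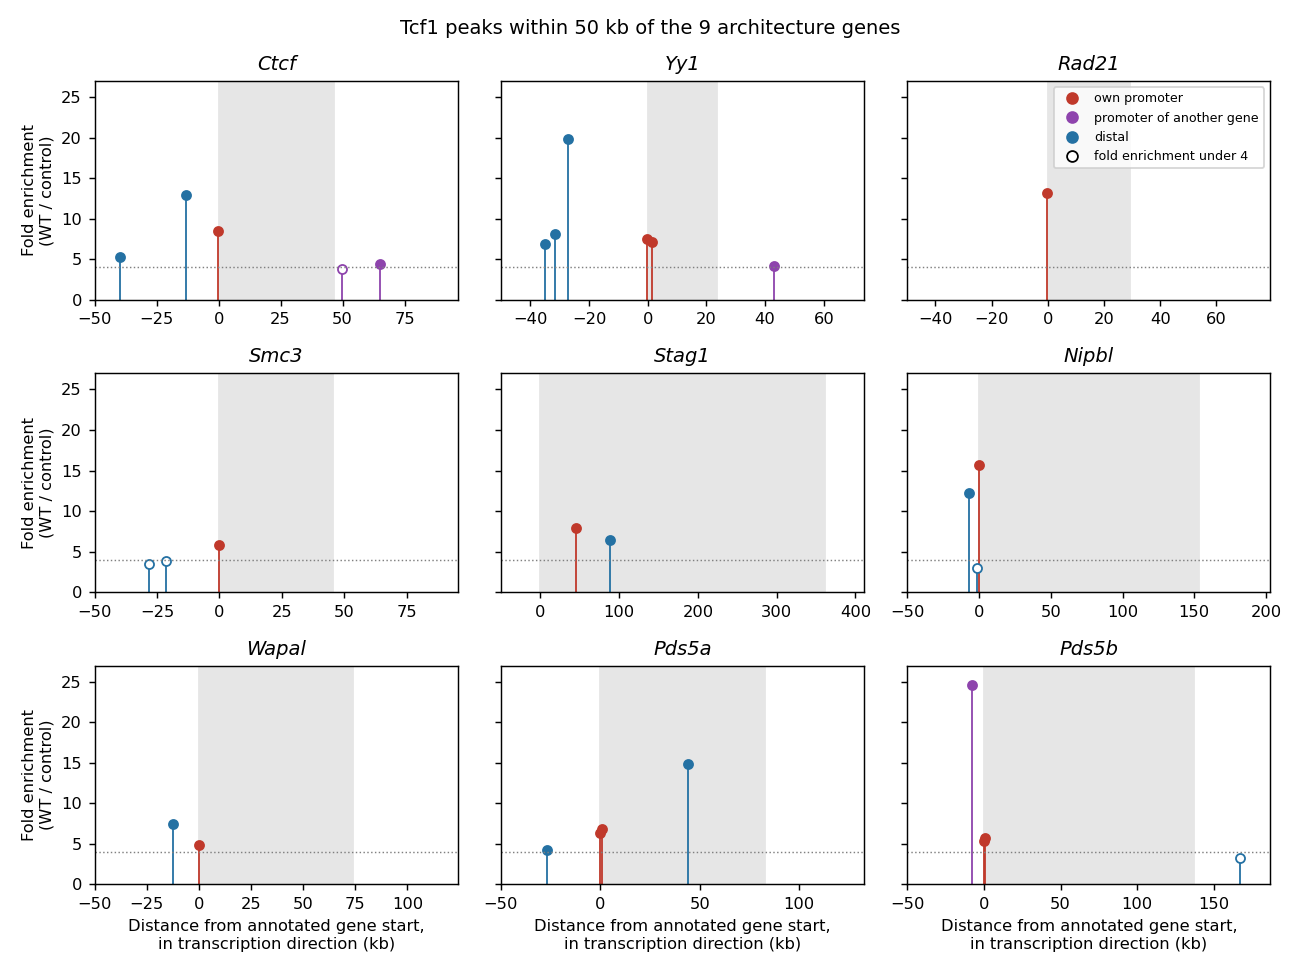
Tcf1 peaks at the 9 genes. Each panel shows 1 gene, with the distance from the annotated gene start in the direction of transcription (kb) on the x axis, the deposited fold enrichment on the y axis, the gene body in grey and the fold minimum of 4 as a dotted line. Red stems are own-promoter peaks, purple stems lie at the promoter of another gene, blue stems are distal, and open circles are under the fold minimum. Each gene has a red stem, which sits at the start in 8 panels and 45.7 kb inside the annotated gene in Stag1, and the tallest stem is the purple one upstream of Pds5b at 24.6.

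The cohesin loader gene Nipbl (ENSMUSG00000022141.6, chromosome 15, 8241225 to 8394463, minus strand) had the strongest own-promoter peak of the 9. This peak (8393674 to 8395682) had a WT pileup of 100 fragments (Poisson interval 81.4 to 122) against a control level at the floor, and a fold enrichment of 15.7 (12.8 to 19.1). Its summit lay 135 bp upstream of the only annotated start site, and the printed window holds the ETS core 43 bp from the summit, beside a long run of GT repeats. At 2009 bp it was also the widest peak of the 25, whose median width was 527 bp. A second peak, 6.77 kb upstream (8400963 to 8401467), had a pileup of 77 and a fold enrichment of 12.2 (9.62 to 15.1) in a window with a GC content of 40.3%. The intervals of the 2 Nipbl peaks overlap.

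The genes for the subunits of the ring differed among themselves. Rad21 (ENSMUSG00000022314.9, chromosome 15, 51794151 to 51823306, minus strand), which encodes the kleisin cut by separase at anaphase, had 1 peak in the whole region. This peak (51823212 to 51823700) lay 162 bp upstream of the start site, with a pileup of 84 (67.0 to 104), a control level at the floor and a fold enrichment of 13.2 (10.6 to 16.4). The nearest other high-confidence summit was 115 kb away. Smc3 (ENSMUSG00000024974.9, chromosome 19, 53674886 to 53720323, plus strand) likewise had 1 high-confidence peak (53674308 to 53675159), 343 bp upstream of its start site. Its control level, 7.35, was the highest of the 25 peaks, so that 47 fragments gave a fold enrichment of 5.75 (4.25 to 7.60). The intervals for Rad21 and Smc3 do not overlap. The Yy1 promoter peak, with the same pileup of 47 but a control level at the floor, had 7.48.

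Stag1 (ENSMUSG00000037286.8, chromosome 9, 100498217 to 100858964, plus strand), which encodes an alternative STAG subunit, spans 361 kb and had 2 peaks. The first annotated start site, that of 1 transcript with an incomplete 3′ end, had no peak. The own-promoter peak (100543382 to 100544161) lay 45.7 kb further in, 35 bp into the first, untranslated exon of the longest coding transcript, which has 34 exons. It had a pileup of 50 and a fold enrichment of 7.95 (5.94 to 10.4). The other peak (100586213 to 100586509) was in intron 1 of that transcript, 42.2 kb from the nearest start site, with a fold enrichment of 6.39.

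Wapal (ENSMUSG00000041408.10, chromosome 14, 35487114 to 35561169, plus strand), the gene for the releasing factor, had the weakest own-promoter peak (35486937 to 35487309). Its pileup was 30 (20.2 to 42.8) and its fold enrichment 4.83, with an interval of 3.31 to 6.83 that contains the fold minimum of 4. The peak 12.2 kb upstream (35474597 to 35475123) had a pileup of 47 and a fold enrichment of 7.48 (5.54 to 9.89), and the intervals of the 2 peaks overlap.

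The PDS5 genes each had a pair of own-promoter peaks of moderate height and 1 stronger peak elsewhere in the region. At Pds5a (ENSMUSG00000029202.8, chromosome 5, 66006499 to 66089095, minus strand), the peak upstream of the start site (66089126 to 66089819, 414 bp away) had a pileup of 40 and a fold enrichment of 6.39. The second (66087968 to 66088428) lay 929 bp downstream of the start site, in exon 2 of 32, which is untranslated there, with a pileup of 43 and a fold enrichment of 6.86 (5.0 to 9.18). It is the peak whose sequence holds ATCAAAG, 28 bp from the summit. The summits of the pair were 1.34 kb apart and differed in base composition, with a GC content of 80.6% at the upstream one and 50.7% at the one with the core. The stronger peak of Pds5a (66044989 to 66045441) was in intron 10, with a pileup of 94 (76.0 to 115) and a fold enrichment of 14.8 (12 to 18.1), and its Runx core is centred 5 bp from the summit. Its fold interval lies above those of both own-promoter peaks. Another peak 26.9 kb upstream had a fold enrichment of 4.21.

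At Pds5b (ENSMUSG00000034021.9, chromosome 5, 151476314 to 151613265, plus strand), the own-promoter peaks were 0.640 kb apart. The one at 151476071 to 151476485 lay 29 bp upstream of the start site, with a pileup of 33 and a fold enrichment of 5.30. Its fold interval of 3.70 to 7.38 contains the fold minimum of 4. The one at 151476738 to 151477114 lay in intron 1, with a pileup of 36 and a fold enrichment of 5.76. The strongest of all 25 peaks was 7.87 kb upstream of Pds5b (151467866 to 151468743), with a pileup of 157 (133 to 184) and a fold enrichment of 24.6 (20.9 to 28.8), above the intervals of both own-promoter peaks. It belongs by distance to another gene, since its summit lay 254 bp upstream of a start site of N4bp2l2, which is transcribed away from Pds5b. Its printed window holds no exact match to the 6 cores. It does hold gccccca, which differs by 1 base from the CTCF core AGGGGGC in reverse orientation, and such near matches were not counted.

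**Figure D2:**
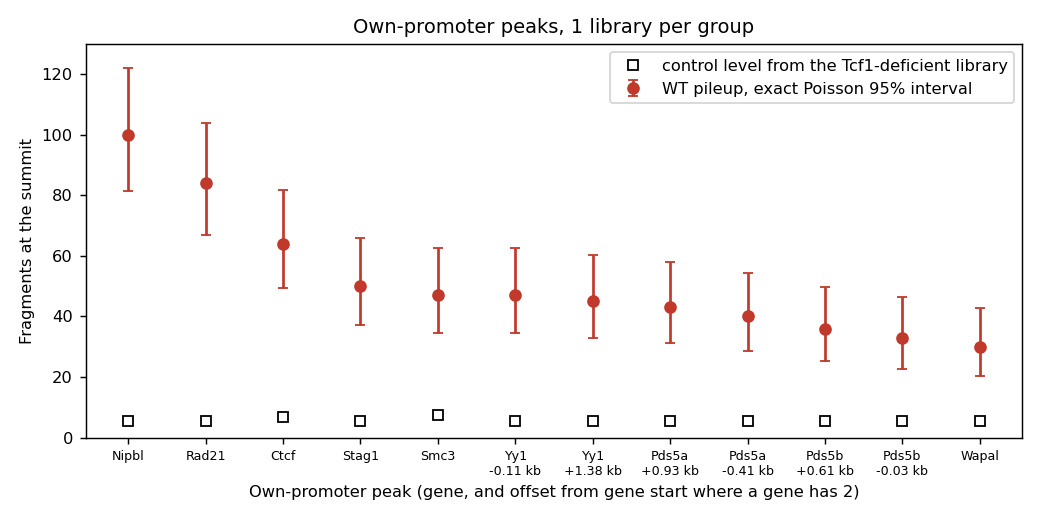
WT pileup at the 12 own-promoter peaks. The y axis gives fragments at the summit, and red points with bars are the WT pileup with its exact Poisson 95% interval. Open squares are the control level from the Tcf1-deficient library, which is the constant floor at every gene but Ctcf and Smc3. The peaks run from 100 fragments at Nipbl to 30 at Wapal, and neighbouring intervals overlap, while control levels stay between 5.42 and 7.35.

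Ctcf (ENSMUSG00000005698.9, chromosome 8, 108160468 to 108206822, plus strand) had 4 high-confidence peaks. The own-promoter peak (108159962 to 108160921) lay 182 bp upstream of the start site, with a pileup of 64 (49.3 to 81.7), a control level of 6.69, slightly over the floor, and a fold enrichment of 8.46 (6.54 to 10.8). Its window has a GC content of 79.1% and holds none of the 6 cores, those of CTCF itself included. A stronger and wider peak 13.3 kb upstream (108146309 to 108147593, 1285 bp) had a pileup of 82 and a fold enrichment of 12.9 (10.3 to 16.0), which overlaps the interval of the promoter peak. It was intergenic, and its nearest start site was that of Mir1966. The remaining peaks were weaker, at 5.27 in the intergenic region 39.6 kb upstream and at 4.36 at the shared promoter region of Acd, a gene for a telomere protein, and Pard6a, a cell polarity gene. The gene body of Ctcf downstream of the promoter held no deposited peak.

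Yy1 (ENSMUSG00000021264.10, chromosome 12, 110031183 to 110054842, plus strand) had 6 high-confidence peaks, the highest number of the 9 genes. The peak at its start (110030336 to 110031436), 108 bp upstream, had a pileup of 47 and a fold enrichment of 7.48 (5.54 to 9.89), and its window holds an ETS core and a CTCF core in reverse orientation. The second own-promoter peak (110032116 to 110032830) in intron 1 had a pileup of 45 and a fold enrichment of 7.17, and lies just inside the promoter limit at 996 bp from a start site. A group of 3 intergenic peaks lay 27 to 35.0 kb upstream, with Yy1 as the gene with the nearest start site for each. The strongest of them (110003881 to 110004455) had a pileup of 126 (105 to 150.0) and a fold enrichment of 19.8 (16.5 to 23.5), above the intervals of both promoter peaks, and holds the Runx core 9 bp from the summit. The others had fold enrichments of 8.10 and 6.86. The last peak of the region, at 4.21, was at the promoter of Slc25a29, which encodes a mitochondrial carrier.

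Ordered by the best own-promoter fold enrichment, the genes ran from Nipbl (15.7) and Rad21 (13.2) over Ctcf (8.46), Stag1 (7.95), Yy1 (7.48) and Pds5a (6.86) to Pds5b (5.76), Smc3 (5.75) and Wapal (4.83). Each gene's counting interval overlapped that of its neighbour in this order. The interval of Nipbl lay above those of the 7 genes from Ctcf on, and that of Rad21 above those of the 6 genes from Stag1 on. Among the 7328 protein-coding genes with a promoter peak the median best fold enrichment was 6.70 (interquartile range 5.21 to 9.50). Of the 9 genes 6 were above this median. Nipbl was at percentile 92.1, Rad21 at 88.1, Ctcf at 68.5 and Wapal at 17.4 of these genes.

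**Figure D3:**
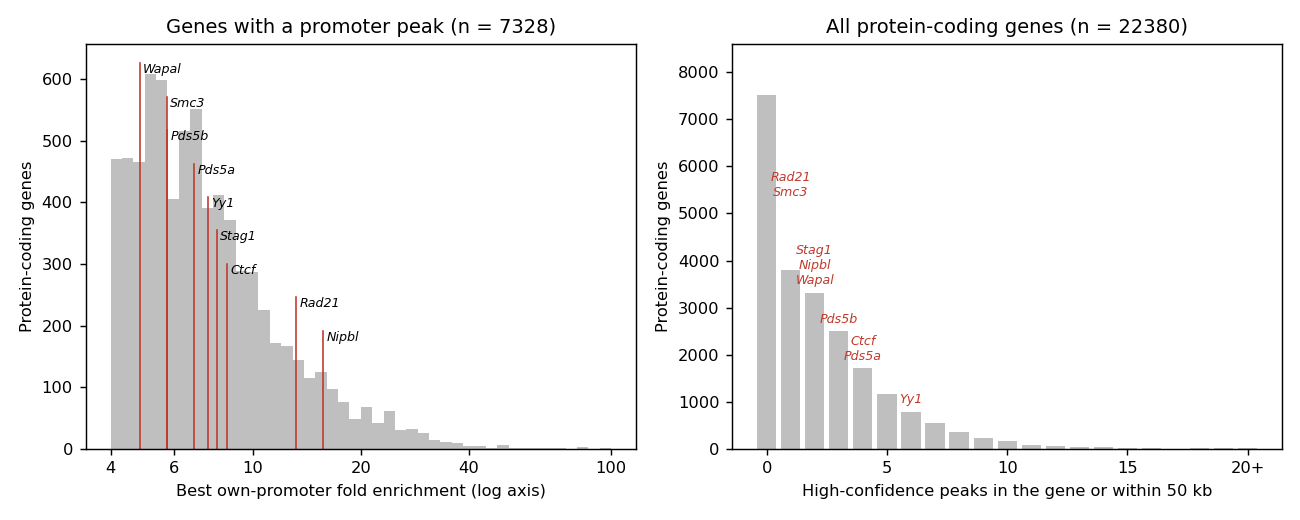
The 9 genes among all protein-coding genes. The left histogram shows the best own-promoter fold enrichment (log axis) of the 7328 genes with a promoter peak, with a red line for each architecture gene, from Wapal at 4.83 to Nipbl at 15.7. The right bars show how many of the 22380 genes have each number of high-confidence peaks in the gene or within 50 kb, and the gene names stand above the bar of their count, from 1 for Rad21 and Smc3 to 6 for Yy1.

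The number of high-confidence peaks per region was 1 for Rad21 and Smc3, 2 for Stag1, Nipbl and Wapal, 3 for Pds5b, 4 for Ctcf and Pds5a, and 6 for Yy1. Over all protein-coding genes the median was 1.0 with an interquartile range of 0.0 to 3.0, and 33.5% had none. Since a long gene has a larger region, the counts were also expressed per 100 kb. Yy1 had 4.85 peaks per 100 kb (percentile 91.7 of all protein-coding genes), Ctcf 2.73 (76.2) and Pds5a 2.19 (70.1). Stag1 had 0.434 (35.0) and Smc3 0.688 (38.5), against a median of 0.972. Of the 25 peaks 12 (48.0%, 30.0 to 66.5) had another high-confidence summit within 10 kb, and for all high-confidence peaks this share was 49.1%.

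By position, 15 of the 25 peaks (60.0%, 40.7 to 76.6) lay in the promoter of some gene, against a background of 39.6% of high-confidence peaks, and the region around a gene contains its promoters by construction. Another 8 (32.0%, 17.2 to 51.6) were intergenic, beside 27.4% of all. In introns away from start sites there were 2 (2.22 to 25%), and the 33.0% of all high-confidence peaks in gene bodies lies above that interval. The intergenic and gene-body shares also depend on the rule, which adds 50 kb at either end of each gene. The 3 promoter peaks that were not at a member's own promoter belonged to N4bp2l2, to Acd and Pard6a, and to Slc25a29 with Mir345. For 19 of the 25 (76.0%, 56.6 to 88.5) the nearest start site was that of a member gene. The median fold enrichment of the 25 peaks was 7.17 (interquartile range 5.75 to 12.2), beside 6.86 (5.14 to 10.6) for all high-confidence peaks, and 9 of the 25 reached a fold enrichment of 8, against a background of 39.6%. A control level over the floor was found at 3 of 25 peaks, beside 13.7% of all. The promoter peaks at these loci had a median GC content of 71.1% (interquartile range 57.7 to 76.4) and the distal ones 52.5% (45.5 to 59.1), beside 62.2% and 48.8% for all promoter and distal peaks. The difference between the architecture genes and the rest of the list was not tested, as the loci were chosen with results of these data known.

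The exact Tcf/Lef core was found in 1 of the 25 peaks (Wilson 95% interval 0.710 to 19.5%), in Pds5a exon 2, against a background of 10.2% of all high-confidence peaks, which lies inside that interval. It was found in 0 of the 10 distal peaks (0.00 to 27.8), where all distal peaks had it in 13.5%, and in 1 of 15 promoter peaks, where all promoter peaks had it in 5.13%. In windows 2 kb to each side of the summits the core was found in 3 of 50 at these loci and in 3.31% for all peaks. The sequence read backwards (GAAACTA) was also found in 1 of the 25, and over all high-confidence peaks in 2.40%, beside 2.51% of the windows 2 kb away. None of the 3 strongest peaks, upstream of Pds5b, upstream of Yy1 and at the Nipbl promoter, held the exact core. With any 1 base of the core free, 7 of the 25 peaks (14.3 to 47.6%) held it, and the 56.5% of all high-confidence peaks lies above that interval. The reversed sequence treated the same way was found in 6 of 25 (11.5 to 43.4%). Its share of all high-confidence peaks, 38.0%, lies inside that interval. Neither background was split into promoter and distal peaks, although promoter peaks were 60.0% of the 25 and 39.6% of all. Whether these loci hold fewer such matches than peaks of the same class was not tested.

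The other cores were found in 0 to 2 of the 25 peaks each, with only exact matches counted. The ETS core was found in 2 of 15 promoter peaks, those of Nipbl and Yy1 (13.3%, 3.74 to 37.9), which is the 13.3% of all promoter peaks, and in 0 of the 10 distal peaks, beside 2.75% of all distal peaks. The Runx core was found in 2 of 10 distal peaks (interval 5.67 to 51.0%), beside 21.7% of all distal peaks, and both are among the 4 strongest of the 25 by fold enrichment. The CTCF core AGGGGGC was present at the promoters of Yy1 and Pds5b, in 13.3% of the promoter peaks against 12.4% of all promoter peaks. The other version, AGGTGGC, was present at the Rad21 promoter, in 6.67% against 4.97%. The YY1 core was found in 0 of the 25, beside 2.98% of all high-confidence peaks.

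**Figure D4:**
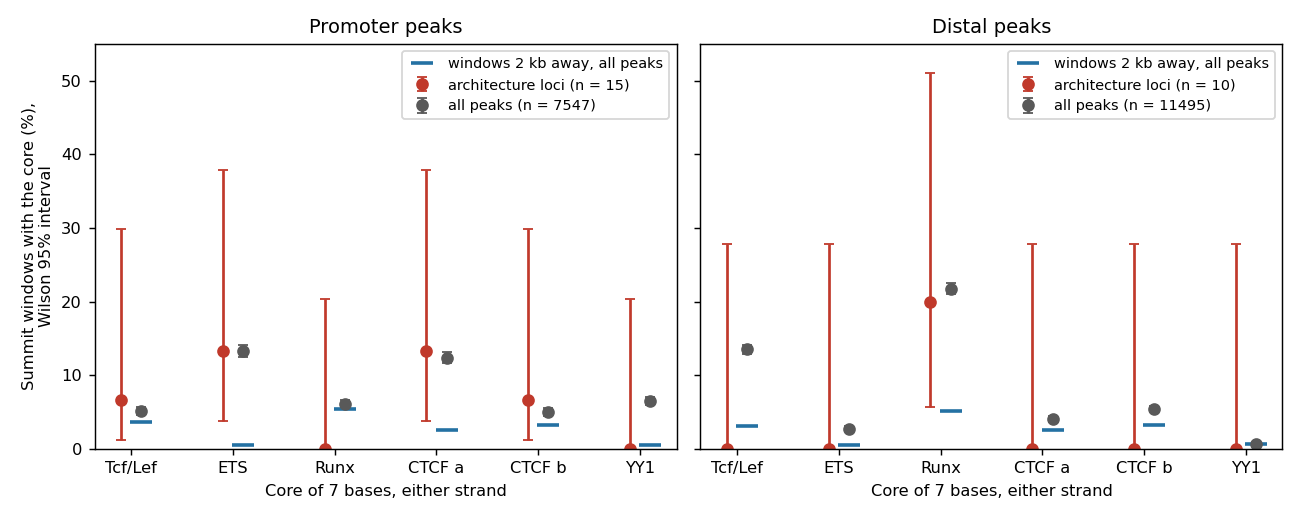
Share of summit windows with each core. The y axis gives the percent of windows within 100 bp of a summit with the exact 7 bases on either strand, for promoter peaks (left) and distal peaks (right). Red points are the peaks at the architecture loci, grey points all high-confidence peaks, both with Wilson 95% intervals, and blue bars the windows 2 kb away. The red intervals are wide, up to 51.0% for Runx in the 10 distal peaks, and each contains the grey point.

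For context, 31 other genes for cohesin, condensin, the SMC5/6 complex and looping factors were listed. Of these, 21 had a high-confidence peak at their own promoter, against the same unmatched background of 32.7%. Their median best fold enrichment was 6.86. The 5 largest were at Ldb1 (15), which encodes an adaptor that bridges distant regulatory sites, Zfp143 (14.8), a zinc-finger protein at promoter loop ends, Cdca5 (12), which encodes the cohesin protector sororin, Smc2 (9.50), a condensin ATPase, and Smc5 (8.26). The Zfp143 peak (chromosome 7, 117204637 to 117205678, pileup 94) was the only one of the 21 best promoter peaks with the exact Tcf/Lef core. Of all high-confidence promoter peaks, 5.13% had this core. Cohesin genes with a promoter peak were Smc1a, which completes the ring, Stag2, the alternative to Stag1, and Mau2, the partner of Nipbl, together with Esco1, Esco2, Sgol1 and Espl1. Condensin was represented by Smc4, Ncapg, Ncapg2, Ncaph and Ncaph2 besides Smc2, and the list was completed by Smc6, Top2a, Top2b and the T cell chromatin organizer Satb1. Genes without a high-confidence promoter peak included Smc1b, Stag3, Rec8, Rad21l, Ctcfl, Hdac8, Ncapd2, Ncapd3 and Yy2. The first 4 of these encode the meiosis-specific cohesin subunits and Ctcfl a germline relative of CTCF, a grouping made after the values were seen.

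By distance, the member peaks nearest the 50 kb limit were 39.6 kb outside Ctcf (fold enrichment 5.27) and 35.0 kb outside Yy1 (6.86). The first deposited peaks beyond it lay 51.7 kb outside Stag1 (4.16, nearest start site that of Nck1) and 63.5 kb outside Smc3 (5.30, nearest that of Dusp5).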

How the data were processed

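Tcf1 ChIP-seq of 1 WT and 1 Tcf1-deficient library was analysed from the 1 deposited peak list. Per the submitters' processing notes and the study's methods, the authors aligned reads to mm9 with Bowtie2 2.2.5 and called peaks with MACS2 2.1.1, with WT as treatment and Tcf1-deficient as control. The deposited pileup is an unscaled signal of WT fragments, the deposited fold enrichment is a ratio, and the deposited −log10 p and −log10 q are Poisson values and their FDR-adjusted form. The header states that q was not calculated, yet positive values are present. Control levels were computed back as (pileup + 1)/fold − 1, and the deposited −log10 p of 30 of 30 peaks was recovered from them within 0.01.

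Start sites and sequence came from GENCODE vM1 and NCBIM37 (mm9), in which all 22286 peaks fit. Python 3.11.15, pandas 2.3.3, scipy 1.17.1 and pysam 0.24.0 were used, and motif and position searches were tested on planted sequences. No test between groups was possible with 1 library each. Alternatives varied the fold and q limits, region, promoter, start sites and core search. The members, gene lists and cores were chosen with earlier results of these data known. All 9 genes were named, each with its promoter peaks, strongest peak and peaks with the Tcf/Lef core, and of the other 31 genes the 5 largest promoter fold enrichments were to be given values and the rest named by presence, of which 1 is not reported here.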

Additional observations from a re-analysis of the deposited data

Results flagged for a closer look

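Of the 30 deposited peaks at the architecture genes, 5 were under the fold minimum of 4 and were left out of the comparisons of high-confidence peaks, although the WT pileup exceeded the control level at each of them with q under 0.05. At the Smc3 locus they lay 28.2 kb upstream (fold enrichment 3.41) and 21.3 kb upstream (3.77) of the start, with control levels of 8.69 and 8.02, the highest of the 30. At the promoter of Rltpr, 3.20 kb beyond the end of Ctcf, the fold enrichment was 3.74 with a pileup of 23. A peak 1.68 kb upstream of Nipbl had a fold enrichment of 2.96 and a pileup of 18, and a peak 30.1 kb beyond the end of Pds5b had 3.27 and a pileup of 20. None of the 5 windows held the exact Tcf/Lef core, while the farther of the Smc3 peaks held the YY1 core and the peak at the Rltpr promoter the CTCF core AGGTGGC. The interval of the fold enrichment contained 4 at each of the 5.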

How the results depend on the processing

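Across 7 results and 48 alternatives, 37 values stayed within the interval of the main value (for the median, its 95% interval from order statistics) or, for counts, within 1.5 times of it, and 11 moved. At a fold minimum of 8 the 25 peaks became 9, the 9 genes with an own-promoter peak 3, the 21 other genes 6, the share with the Tcf/Lef core 0.00%, and the median fold enrichment 13.2, because the weaker peaks are removed. The number of peaks was 16 within 10 kb, 41 within 100 kb and 6 in gene bodies alone, and the promoter share was 81.2% within 10 kb, which follows from the size of the region. Within 100 kb the nearest start site was that of a member for 46.3% of peaks. With any 1 base of the core free, 28.0% of peaks held it (14.3 to 47.6), beside 56.5% of all high-confidence peaks, 54.0% of the windows 2 kb away at these loci and 51.8% of those windows over all. The core read backwards, with 1 base free, was found in 24.0% (11.5 to 43.4) against 38.0% of all, and in 46.0% of the windows 2 kb away at these loci and 43.9% of those over all. These backgrounds were computed after the data had been seen and were not split into promoter and distal peaks. No paired analysis was possible because each group had 1 library. Some weaker peaks were close to the limit: at 3 of the 25 the pileup was less than 1 Poisson SD from what the fold minimum required. The fold interval also contained 4 at the Wapal promoter peak, the Pds5b promoter peak at 5.30 and the Ctcf peak at 5.27. The share of such peaks over the whole list was not computed, and the effect of depth was not tested.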
